A study of Mus musculus with 6 samples.

Results

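The late neutrophil granule and calprotectin genes were followed here as 8 genes, namely Ltf, Lcn2, Hp, Ngp, Camp, Fcnb, S100a8 and S100a9, out of 27198 genes in the deposited table. They were taken by gene name, and the choice was made with their lower values after FA treatment already known, so their own difference between the groups is given as a description without a test. The RNA came from hematopoietic stem cells (HSCs), from which all blood lineages arise, in 3 Ctrl and 3 l-FA libraries. All mice were male wild-type C57BL/6 animals of 8 to 10 weeks that had not been irradiated. The l-FA mice had been injected intraperitoneally with ferulic acid (FA), a plant phenolic acid, every day at 50 mg/kg over 30 days, and the Ctrl mice with solvent. HSCs were sorted as lineage-negative, Sca-1+, c-Kit+, CD34- and Flk2- (CD135-) cells. The lineage antibodies included Mac-1 and Gr-1, which are the antigens by which neutrophils themselves are normally removed. How many mice went into a library is not stated, so the spread between libraries may be technical, and n counts libraries.

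Neutrophils make their granules in a fixed order during maturation in the bone marrow. Azurophil granules with myeloperoxidase and elastase are filled first, at the promyelocyte stage, and specific and gelatinase granules with lactoferrin, lipocalin 2 and cathelicidin follow at the myelocyte and metamyelocyte stages, when the factor C/EBPε is needed. Calprotectin, the complex of S100A8 and S100A9, is not stored in granules but fills the cytosol of maturing neutrophils and monocytes. Several of these proteins withhold metals or heme iron from microbes. Lactoferrin binds iron, lipocalin 2 binds the siderophores with which bacteria take up iron, haptoglobin binds free hemoglobin, and calprotectin binds zinc and manganese.

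In HSC libraries of Ctrl mice the RNA of all 8 genes was present, and in l-FA libraries each of them was lower, with the fitted level between 8.91-fold lower for Ltf and 2.03-fold lower for S100a9. The haptoglobin gene Hp had by far the most reads and Camp the fewest. All 8 genes passed the filter on low counts, which left 16520 genes, and in all 8 every l-FA library lay below every Ctrl library. The same held for 29.9% of all genes tested. A fitted level more than 2-fold lower in l-FA, which all 8 genes had, was found in 5.48% of all genes. Neither share is read as evidence, because the 8 genes were picked from this contrast. The median log2 fold change was -1.54 over the 8 genes and 0.00 over all genes tested. In bulk RNA of sorted cells, fewer cells of one type and less RNA per cell cannot be told apart.

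Each library held 19287735 to 20380610 counts, with 22467 to 22728 genes detected in Ctrl and 22738 to 22954 in l-FA. Between libraries of one group the median chi-square over genes ran from 0.888 to 1.07, against 0.455 for pure counting error. Between groups it ran from 8.19 to 8.83. All 15 HSC markers, among them Kit, Mecom and Procr, were detected in these libraries. The RNAs of the excluded antigens CD34 and Flk2 were abundant as well, with 25402 to 32430 counts of Cd34 and 14232 to 24368 of Flt3 in a library. Cd34 and Flt3 each overlap another listed gene.

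By the deposited coordinates, which belong to GRCm39 in the submitters' processing notes, 3 of the genes lie on chromosome 9. These are Camp (ENSMUSG00000038357, 109676447 to 109678685), Ngp (ENSMUSG00000032484, 110248815 to 110252080) and Ltf (ENSMUSG00000032496, 110848339 to 110871835). On chromosome 2 lie Fcnb (ENSMUSG00000026835, 27966390 to 27974897) and Lcn2 (ENSMUSG00000026822, 32274645 to 32278264). S100a8 (ENSMUSG00000056054, 90576285 to 90577342) and S100a9 (ENSMUSG00000056071, 90599939 to 90603028) are on chromosome 3, and Hp (ENSMUSG00000031722, 110301760 to 110305804) is on chromosome 8. All are listed as protein-coding, and none overlaps another listed gene.

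The DNA just before the start of these genes was searched for letters that factors of the granulocyte program are known to bind. RefSeq promoters of the older build GRCm38.p6 were matched by symbol for 7 of the 8 genes, Hp being the one without a match, and the 250 bases upstream of the start were searched on both strands. The C/EBP letters TTNCNNAA or their reverse complement TTNNGNAA occurred in 6 of the 7 promoters (Fcnb, Lcn2, S100a8, S100a9, Ngp and Ltf) and in 36.8% of 32851 promoters of the same length. The PU.1 letters GAGGAA or TTCCTC were in 3 of the 7 (Lcn2, S100a8 and Ltf) and in 23.3% of all promoters. The GFI1 letters AAATCA or TGATTT were in Ltf alone and in 12.4% of all promoters, and in Ltf they overlap a C/EBP match. A match is a run of letters and not a measured binding site. The stretches below are shown because C/EBP factors are known regulators of granule genes. They are printed 5′ to 3′ on the strand of the gene, with the C/EBP letters in capitals, and lie upstream of the annotated gene starts in GRCm38.p6 at chr9:111019042-111019270 (Ltf, plus strand), chr9:110419558-110419746 (Ngp, plus), chr2:28084886-28085128 (Fcnb, minus), chr3:90668821-90668977 (S100a8, plus) and chr3:90695722-90695971 (S100a9, minus).
Ltf: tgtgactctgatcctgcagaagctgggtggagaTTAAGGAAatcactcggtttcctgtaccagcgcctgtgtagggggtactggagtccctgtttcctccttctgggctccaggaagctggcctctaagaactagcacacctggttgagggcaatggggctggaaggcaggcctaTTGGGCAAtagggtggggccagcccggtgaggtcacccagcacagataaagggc
Ngp: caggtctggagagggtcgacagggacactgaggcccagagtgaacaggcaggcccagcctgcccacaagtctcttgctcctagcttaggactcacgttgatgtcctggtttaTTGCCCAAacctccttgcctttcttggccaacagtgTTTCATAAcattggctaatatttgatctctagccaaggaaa
Fcnb: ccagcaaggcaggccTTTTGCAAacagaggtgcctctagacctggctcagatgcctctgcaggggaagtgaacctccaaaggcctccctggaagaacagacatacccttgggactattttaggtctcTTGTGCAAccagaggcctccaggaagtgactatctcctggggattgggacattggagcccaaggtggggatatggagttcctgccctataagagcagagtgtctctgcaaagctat
S100a8: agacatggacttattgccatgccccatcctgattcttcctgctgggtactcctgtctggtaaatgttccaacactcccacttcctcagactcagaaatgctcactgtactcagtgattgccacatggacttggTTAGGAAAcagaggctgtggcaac
S100a9: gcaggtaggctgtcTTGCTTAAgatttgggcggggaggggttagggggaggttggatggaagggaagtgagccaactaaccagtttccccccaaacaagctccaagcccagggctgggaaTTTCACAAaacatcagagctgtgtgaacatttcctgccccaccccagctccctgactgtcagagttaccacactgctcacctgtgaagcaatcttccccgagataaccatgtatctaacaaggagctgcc
Ltf, Ngp, Fcnb and S100a9 hold 2 C/EBP matches each in these stretches and S100a8 holds 1. For Camp the 89 bases that could be read held none, and Lcn2 is not shown.

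The plot of levels by library shows the 8 genes on one scale of CPM, counts scaled to library size after TMM normalization for composition.

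**Figure D1:**
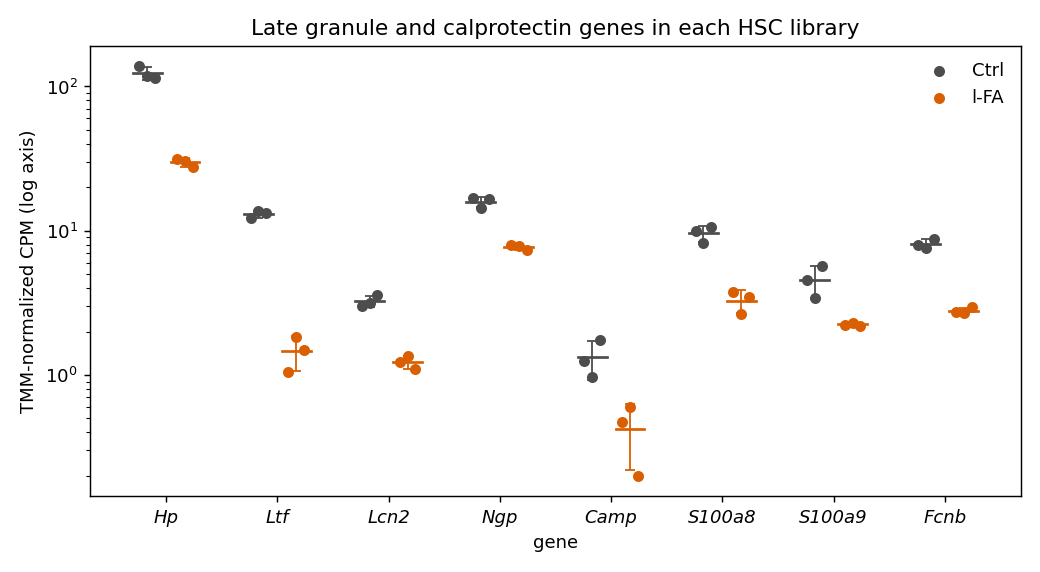
TMM-normalized CPM (log axis) of the 8 genes in each of 3 Ctrl (grey) and 3 l-FA (orange) HSC libraries. Points are libraries, long lines means and whiskers SD, and in every gene the 3 l-FA points lie below the 3 Ctrl points, from 124 against 29.8 CPM on average in Hp to 1.32 against 0.424 CPM in Camp.

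Among the genes of iron- and heme-binding proteins, Ltf, the gene of lactoferrin, differed most. Ctrl libraries 1 to 3 gave 236, 256 and 263 counts, and l-FA libraries 1 to 3 gave 22, 37 and 30 counts. The groups were far apart, with the lowest Ctrl level 6.67 times the highest l-FA level. Its mean was 13.1 ± 0.719 CPM in Ctrl and 1.46 ± 0.399 CPM in l-FA (SD, n = 3 each), so that l-FA was at 11.2% of the Ctrl mean. The fitted log2 fold change was -3.16 (SE 0.19), and counting error alone places the fold between 7.19 and 11.3 (95% interval, exact binomial). SE here is the size of the log2 fold change divided by the square root of the F statistic of edgeR's quasi-likelihood test.

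Hp, the gene of haptoglobin, had 2648, 2224 and 2280 counts in Ctrl and 660, 612 and 552 counts in l-FA. The groups did not overlap, and the lowest Ctrl level was 3.64 times the highest l-FA level. The mean level was 124 ± 12.4 CPM in Ctrl and 29.8 ± 1.98 CPM in l-FA (SD, n = 3 each), and the log2 fold change was -2.05 (SE 0.087). Ctrl library 1 was the highest of its group, at 138 CPM against 119 and 114 CPM in the others. Hp is best known as a product of the liver that circulates in plasma, and it is also made by granulocyte precursors.

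Lcn2, the gene of the siderophore-binding lipocalin 2, was read far less often. Its counts were 58, 59 and 71 in Ctrl and 26, 27 and 22 in l-FA. Even so the groups did not overlap, and the spread within each was small. The mean level was 3.25 ± 0.281 CPM in Ctrl and 1.23 ± 0.122 CPM in l-FA (SD, n = 3 each), and the log2 fold change was -1.40 (SE 0.15). The counting interval of the fold was 2.02 to 3.51, and it covers counting error only.

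Among the antimicrobial granule genes, Ngp encodes neutrophilic granule protein, a small relative of the cathelicidins. It had 322, 269 and 329 counts in Ctrl and 168, 158 and 147 counts in l-FA. The groups were separate, but the difference was among the smallest of the 8 genes, at 15.9 ± 1.29 CPM against 7.74 ± 0.339 CPM (SD, n = 3 each). The log2 fold change was -1.04 (SE 0.090), and the counting interval of the fold, 1.84 to 2.30, spans the 2-fold limit.

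Camp, the gene of the cathelicidin precursor, was the gene nearest to the count floor, set at 3 counts in a library. It had 24, 18 and 35 counts in Ctrl and 10, 12 and 4 counts in l-FA. The groups did not overlap, yet a count of 4 has an exact Poisson 95% interval of 1.09 to 10.2 and the lowest Ctrl count, 18, one of 10.7 to 28.4. Its mean was 1.32 ± 0.401 CPM in Ctrl and 0.424 ± 0.204 CPM in l-FA (SD, n = 3 each), and the log2 fold change was -1.63 (SE 0.40). The counting interval of the fold ran from 1.98 to 5.09. Of the 48 counts of the 8 genes over 6 libraries, this count of 4 was the lowest and the only one under 10.

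Fcnb encodes ficolin B, a lectin that recognizes microbial sugars and can start the lectin pathway of complement. Its counts were 152, 141 and 176 in Ctrl and 57, 54 and 59 in l-FA. The l-FA libraries were within a narrow range, and all lay below Ctrl by at least 2.56 times. The mean level was 8.09 ± 0.657 CPM in Ctrl and 2.78 ± 0.145 CPM in l-FA (SD, n = 3 each), and the log2 fold change was -1.54 (SE 0.11).

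For calprotectin, the S100a8 subunit gene had 191, 153 and 212 counts in Ctrl and 79, 53 and 69 counts in l-FA. S100a9, the gene of its partner, had 88, 64 and 113 counts in Ctrl and 47, 46 and 44 counts in l-FA. The 3 l-FA libraries lay below the 3 Ctrl libraries for both subunits, although the lowest Ctrl level of S100a9 was only 1.496 times its highest l-FA level. S100a8 went from 9.59 ± 1.26 to 3.28 ± 0.578 CPM and S100a9 from 4.56 ± 1.12 to 2.24 ± 0.0456 CPM (SD, n = 3 each). Their log2 fold changes were -1.54 (SE 0.17) and -1.02 (SE 0.20), and the counting interval of the S100a9 fold, 1.66 to 2.53, spans the 2-fold limit. The ratio of S100a8 to S100a9 counts was 2.17, 2.39 and 1.88 in Ctrl and 1.68, 1.15 and 1.57 in l-FA. This ratio was lower in every l-FA library than in every Ctrl library, and it is given without a test.

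Levels of different genes can be compared only per length of transcript. The length behind the deposited FPKM values (a level scaled to depth and gene length) was 4867 bases for Lcn2, longer than the 3620 bases its locus spans, and 1578 of 27198 genes had such a length. The levels were therefore also divided by the longest protein-coding transcript in GENCODE M21, which is 915 bases for Lcn2. On this scale of CPM per kilobase, Hp led in Ctrl with 92.0 ± 9.25, followed by S100a8 with 19.7 ± 2.59, Ngp with 12.998 ± 1.06, S100a9 with 8.78 ± 2.16 and Fcnb with 6.92 ± 0.562 (SD, n = 3 each). Ltf with 4.76 ± 0.262, Lcn2 with 3.55 ± 0.307 and Camp with 1.74 ± 0.528 came last. S100a9 and Fcnb were the neighbors in this order whose Ctrl libraries overlapped.

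In l-FA the order changed at its lower end. Ltf had 0.533 ± 0.146 CPM per kilobase, next to Camp with 0.560 ± 0.269, and the libraries of these genes overlapped, whereas in Ctrl every Ltf library had been above every Lcn2 and Camp library. S100a8 with 6.75 ± 1.19 and Ngp with 6.33 ± 0.278 overlapped as well. Hp kept the first place, with 22.2 ± 1.47. In the deposited FPKM, Ngp with 12.7 ± 1.08 was above S100a8 with 9.48 ± 1.29 in Ctrl, and Lcn2 with 0.649 ± 0.0591 was below Camp with 1.70 ± 0.524 (SD, n = 3 each), so these 2 orders depend on the length used. The separation of Ltf from Camp in Ctrl depends on it too. In FPKM their Ctrl libraries overlapped, with 2.15 to 2.39 for Ltf and 1.23 to 2.27 for Camp. Among all genes with a count in any of the 6 libraries, these Ctrl FPKM values put Hp at the 96.1th percentile and Lcn2 at the 48.6th.

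The spread between libraries of one group was not used to choose the genes. For all but 3 of the 16 gene and group combinations it was within counting error, taken as a chi-square over 3 libraries under 5.99. The other 3 were all in Ctrl, namely Hp (46.8), S100a9 (11.02) and S100a8 (6.76). Among all genes tested, 29.4% exceeded this value in Ctrl and 28.1% in l-FA. The coefficient of variation in Ctrl ran from 5.50% for Ltf to 30.3% for Camp, and in l-FA from 2.03% for S100a9 to 48.0% for Camp. Within Ctrl, library 3 was the highest in 5 of the 8 genes (Camp, Lcn2, Fcnb, S100a8 and S100a9) and library 2 the lowest in 5 (Camp, Ngp, Fcnb, S100a8 and S100a9). Over the 6 libraries, the deviations of 2 genes from their group means had a positive Pearson's r in 19 of 28 pairs, with a median of 0.18. These pairs share their libraries and their depth, and no test is given for them.

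Summed, the 8 genes had 3719, 3184 and 3479 counts in Ctrl and 1069, 999 and 927 counts in l-FA. Hp made up 71.2%, 69.8% and 65.5% of the sum in Ctrl and 61.7%, 61.3% and 59.5% in l-FA. Both the sum and the share of Hp were lower in every l-FA library. Without Hp, the summed level in l-FA was still 33.6% to 34.9% of the Ctrl mean. The Ngp to Camp ratio of FPKM was 8.32, 9.27 and 5.83 in Ctrl and 10.4, 8.17 and 22.8 in l-FA, and the groups overlapped, with the last value resting on the 4 counts of Camp.

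The other genes of late granules and mature neutrophils were examined as a list of 40 genes, of which 34 are in the table and 28 were tested. The study's methods call a gene at an adjusted p under 0.05 together with a fold above 2. With this rule edgeR's quasi-likelihood test called 11 of the 28 lower and 0 higher, against 5.1% lower and 6.68% higher among all genes tested. DESeq2 called the same numbers. This list, like every gene list here, was chosen with earlier results of these data known, so its counts are a description. On the adjusted p alone, with no fold limit, 18 passed in the lower direction and 3 in the higher, against 25% and 25.5% of all genes tested, and 3 were higher at an unadjusted p under 0.05. The list median was a log2 fold change of -0.74, and every fall or rise given as a number from here on is on this log2 scale. Hdc, the gene of histidine decarboxylase, which makes histamine, had 2932, 2773 and 2870 counts in Ctrl and 526, 497 and 510 counts in l-FA, and its log2 level fell by 2.56 (SE 0.038, adjusted p = 6.06e-07, edgeR). Trem3 and Trem1, receptors that amplify myeloid activation, fell as well, with log2 fold changes of -2.84 (SE 0.068, adjusted p = 2.12e-06, edgeR) and -1.63 (SE 0.090, adjusted p = 3.99e-05, edgeR). Mmp8, the neutrophil collagenase of specific granules, had 63, 64 and 69 counts in Ctrl and 32, 34 and 30 counts in l-FA, and it fell by 1.11 (SE 0.13, adjusted p = 0.000576, edgeR). Cybb, the large subunit of the phagocyte oxidase, and Slpi, an elastase inhibitor that overlaps Mir7678, also fell, with log2 fold changes of -1.46 and -1.29.

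Some genes of mature neutrophils went the opposite way. They were named after their values were seen. Lyz2, the lysozyme gene and the most abundant of this list, had 5928, 5825 and 6153 counts in Ctrl and 8186, 7542 and 7633 counts in l-FA, and its log2 level rose by 0.30 (SE 0.022, adjusted p = 0.000102, edgeR). Padi4, whose enzyme citrullinates histones in neutrophils, rose by 0.18 (adjusted p = 0.00379, edgeR). Itgam, which encodes the Mac-1 chain used in the sort, had 771 to 967 counts in Ctrl and 1209 to 1395 in l-FA and rose by 0.50 (SE 0.083, adjusted p = 0.00266, edgeR). These are the 3 genes of the list that passed the adjusted p in the higher direction, and none of them reached 2-fold. The summed list stood at 86.2% to 87.1% of the Ctrl mean in l-FA, and at 76.9% to 79.1% without Lyz2, whereas the 8 late granule and calprotectin genes stood at 25.8% to 28.3%. No test of this difference is given, because the 8 genes were chosen on this contrast.

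**Figure D2:**
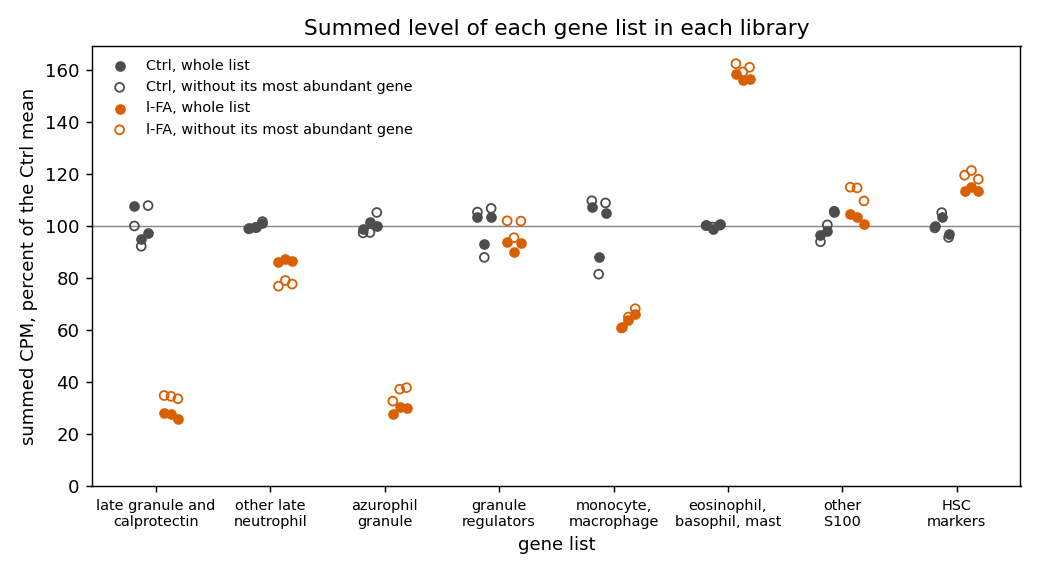
Summed TMM-normalized CPM of each gene list in each library, as percent of the Ctrl mean, with filled points for the whole list and open points without its most abundant gene. The 8 late granule and calprotectin genes and the azurophil genes sit at 25.8% to 30.3% in l-FA, the eosinophil, basophil and mast cell list at 156% to 158%.

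The azurophil list, whose products enter granules before those of the 8 genes, had 14 genes, all tested. Of these, 9 were called lower and 0 higher by edgeR and by DESeq2, against 5.1% and 6.68% of all genes tested by edgeR. At an unadjusted p under 0.05, 0 were higher. This list too was chosen with earlier results of these data known, and its counts are not independent evidence. Elane, the neutrophil elastase gene, fell, with 60057 to 64436 counts in Ctrl and 9018 to 9671 in l-FA (log2 fold change -2.82, SE 0.017, adjusted p = 5.65e-09, edgeR). Mpo, the myeloperoxidase gene, fell by 1.91 (SE 0.030, adjusted p = 6.54e-07, edgeR), and it overlaps the listed gene Gm11505. The summed azurophil level was 25718 to 26425 CPM in Ctrl and 7218 to 7892 CPM in l-FA, so that it remained far above that of the 8 genes in both groups. The summed CPM of the 8 genes was 1.05%, 0.893% and 0.964% of the CPM of Mpo alone in Ctrl and 1.07%, 0.979% and 0.934% in l-FA. These shares overlapped between the groups.

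**Figure D3:**
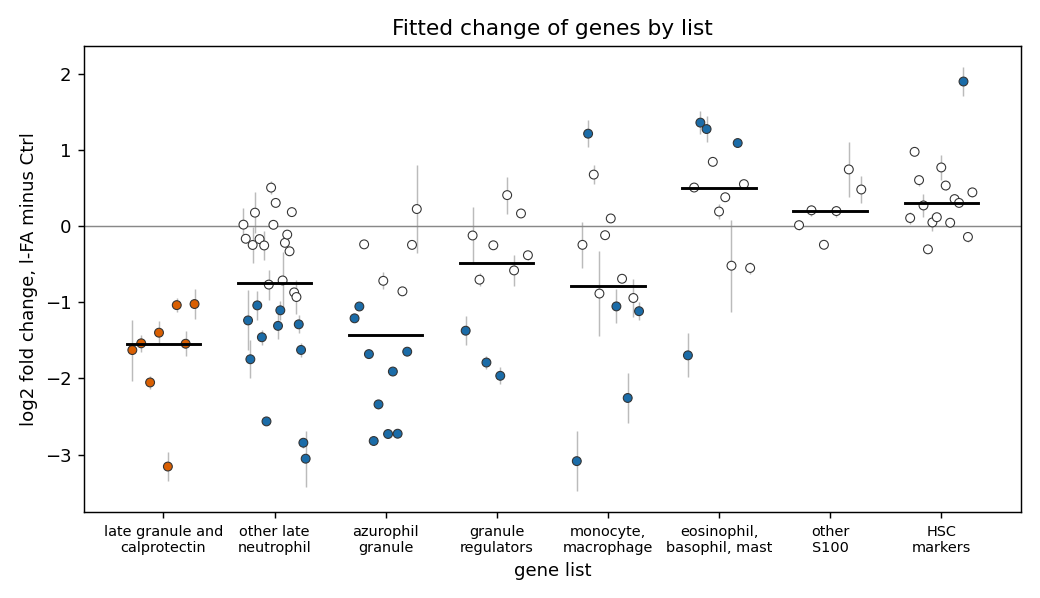
Log2 fold change (l-FA minus Ctrl, edgeR) of every tested gene by list, with SE (derived from the F statistic) as bars and the list median as a black line. Orange points are the 8 late granule and calprotectin genes (median -1.54), blue points are other genes past an adjusted p of 0.05 and 2-fold, and white points are those that are not.

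Regulators of the granulocyte program were followed as 10 genes, all tested. Of these, 3 were called lower and 0 higher by both edgeR and DESeq2, with 1 higher at an unadjusted p under 0.05. Among all genes tested, edgeR called 5.1% lower and 6.68% higher. The regulators were also listed with earlier results of these data known, so their counts are descriptive. Cebpe, the factor of the late granule stage, had 365, 342 and 344 counts in Ctrl and 115, 109 and 97 counts in l-FA and its log2 level fell by 1.79 (SE 0.086, adjusted p = 2.49e-05, edgeR). Gfi1, a repressor needed for neutrophil maturation, had 470, 457 and 393 counts in Ctrl and 131, 110 and 117 in l-FA and fell by 1.96 (SE 0.11, adjusted p = 4.65e-05, edgeR). Cebpa, which drives the entry into the granulocyte lineage, had 202, 201 and 203 counts in Ctrl and 113, 69 and 66 in l-FA and fell by 1.37 (SE 0.19, adjusted p = 0.00132, edgeR). Gfi1 and Cebpa each overlap another listed gene.

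The remaining regulators had smaller fold changes. Cebpd, Spi1 (PU.1) and Csf3r, the receptor of granulocyte colony-stimulating factor, fell by less than 2-fold, with log2 fold changes of -0.70, -0.38 and -0.25 (adjusted p = 0.000836, 0.00197 and 0.000114, edgeR). Runx1 rose by 0.17 (adjusted p = 0.00388, edgeR). Klf5 had a log2 fold change of -0.58 (adjusted p = 0.0527, edgeR) and Irf8, a monocyte and dendritic cell factor, was at 0.41 (SE 0.24, adjusted p = 0.21, edgeR). Cebpb had at most 13 counts in a library, and its change of -0.12 had an SE of 0.37. No change in Cebpb was detectable at this depth.

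Receptors and partners of the encoded proteins were listed as 14 genes, of which 13 are in the table and 8 were tested. Tfrc, the receptor for transferrin, the plasma relative of lactoferrin, fell by 1.07 in log2 level (SE 0.046, adjusted p = 1.74e-05, edgeR), with 2047 to 2194 counts in Ctrl and 997 to 1145 in l-FA. Tfr2, the second transferrin receptor gene, went the other way and rose by 0.28 (SE 0.036, adjusted p = 0.000981, edgeR), with 2981 to 3237 counts in Ctrl and 3810 to 4234 in l-FA. P2rx7, an ATP-gated channel that the cathelicidin peptide can act on, rose by 1.26 (SE 0.17, adjusted p = 0.00122, edgeR), with 73 to 91 counts in Ctrl and 183 to 248 in l-FA, and overlaps Mir8115. Slc22a17, a lipocalin 2 receptor, rose by 0.58 (adjusted p = 0.00215, edgeR), and Lrp1, a lactoferrin receptor, by 0.22 (adjusted p = 0.0428, edgeR), both under 2-fold. For Cd163, the scavenger receptor for haptoglobin bound to hemoglobin, the log2 fold change was 0.01 (SE 0.073, adjusted p = 0.958, edgeR), and for transferrin itself, Trf, it was 0.04 (adjusted p = 0.335, edgeR). Tlr4, a receptor for calprotectin, had 46, 252 and 289 counts in Ctrl and 18, 263 and 269 in l-FA, so that library 1 of each group stood apart and a change could not be measured. Ager, the other calprotectin receptor, had 7 to 14 counts in a library and was not tested.

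Among other S100 genes, the family to which both calprotectin subunits belong, 10 of 14 are in the table and 6 were tested. edgeR and DESeq2 each called 0 (edgeR called 1 without l-FA library 2), and at an unadjusted p under 0.05 edgeR had 1 lower and 3 higher. Over all genes tested, edgeR called 5.1% lower and 6.68% higher. S100a11 fell by 0.25 (SE 0.051, adjusted p = 0.00698, edgeR). The log2 fold change of S100a1 was 0.01 (adjusted p = 0.892, edgeR), that of S100a10 was 0.21 (adjusted p = 0.0585, edgeR) and that of S100a6 was 0.48 (adjusted p = 0.0632, edgeR). The summed level of these S100 genes in l-FA was 101% to 104% of the Ctrl mean.

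Markers of cells that the sort should remove were read beside these values. The antigens used to exclude cells were listed as 8 genes, of which 6 were tested. Of these, Ly6c1 was called lower (log2 fold change -1.21, adjusted p = 0.00371, edgeR) but not without l-FA library 3, 0 were called higher by edgeR and DESeq2, and 3 were higher at an adjusted p under 0.05 and at an unadjusted one, namely Itgam, Cd34 and Flt3. Their summed level was 2401 to 2500 CPM in Ctrl and 3115 to 3257 CPM in l-FA, mostly from Cd34 and Flt3. Over all genes tested, 5.1% were called lower and 6.68% higher. On the adjusted p alone, 25% of all genes tested were lower and 25.5% higher. Ly6g, which encodes the neutrophil antigen seen by Gr-1 antibodies, had 3, 6 and 8 counts in Ctrl and 0 counts in each l-FA library and was not tested.

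Of the list of other late granule and mature neutrophil genes, 11 of 28 were called lower and 0 higher. Further single genes of it were named after their values were seen. Wfdc21, Chil3, Mcemp1 and Cd177 were called lower, with log2 fold changes of -3.05, -1.75, -1.31 and -1.24 (adjusted p = 0.000738, 0.00145, 0.00102 and 0.0372, edgeR). Pglyrp1 fell by 0.87, under 2-fold (adjusted p = 5.82e-05, edgeR). Cxcr2 had 61, 66 and 86 counts in Ctrl and 38, 42 and 29 in l-FA and fell by 1.04 (adjusted p = 0.00428, edgeR). Retnlg had 22, 26 and 19 counts in Ctrl and 12, 12 and 13 in l-FA and fell by less than 2-fold (adjusted p = 0.0123, edgeR). Fpr1, a formyl peptide receptor, had 1, 0 and 0 counts in Ctrl and 7, 7 and 9 in l-FA and was not tested. Itgb2, the partner chain of Itgam in Mac-1, had a log2 fold change of 0.02 (adjusted p = 0.838, edgeR), and Clec4e one of 0.18 (adjusted p = 0.624, edgeR).

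Of the monocyte and macrophage list, 4 of 12 genes tested were called lower and 1 higher, against 5.1% and 6.68% of all genes tested. Its summed level was 415 to 505 CPM in Ctrl and 288 to 311 CPM in l-FA. Monocytes also express calprotectin. The 4 called lower were Vcam1, with a log2 fold change of -1.12 (adjusted p = 0.000429, edgeR), the F4/80 gene Adgre1 with -3.08 (adjusted p = 0.000913, edgeR), the monocyte antigen gene Ly6c2 with -2.26 (adjusted p = 0.00166, edgeR) and Cx3cr1 with -1.05 (adjusted p = 0.00787, edgeR). C1qb, a complement gene of macrophages, was called higher, with 1.21 (adjusted p = 0.00152, edgeR). On the adjusted p alone, 6 of the 12 were lower and 3 higher, against 25% and 25.5% of all genes tested. Genes named after their values were seen went both ways. F13a1, the most abundant of the list, fell by 0.69 (SE 0.030, adjusted p = 1.67e-05, edgeR) and Mrc1 by 0.94 (adjusted p = 0.0202, edgeR). The chemokine receptor gene Ccr2 rose by 0.68 (adjusted p = 0.00482, edgeR) and Csf1r by 0.10 (adjusted p = 0.0363, edgeR). Fcgr1 was at 0 in every Ctrl library and had 13, 8 and 20 counts in l-FA. The part of such cells in the values of the 8 genes was not tested.

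Gene calls in the lists of other blood lineages did not share one direction, while most of the list sums were higher in l-FA. Among all genes tested, edgeR called 5.1% lower and 6.68% higher, and a single call in a short list is not read as a result about it. Of the eosinophil, basophil and mast cell list, 3 of 11 genes were called higher and 1 lower, with a summed level of 304 to 310 CPM in Ctrl and 480 to 487 CPM in l-FA, and Prg2, the eosinophil major basic protein gene, rose by 1.09 (SE 0.033, adjusted p = 4.9e-06, edgeR). The gene called lower was Ccr3, with a log2 fold change of -1.70 (adjusted p = 0.00312, edgeR). The megakaryocyte list, of genes of platelet precursors, had 1 of 8 called higher and 0 lower by edgeR and DESeq2, with 0 lower at an unadjusted p under 0.05 (459 to 494 CPM in Ctrl, 632 to 634 in l-FA). The erythroid list, with the globin genes, had 0 of 8 called higher by edgeR and DESeq2, with 3 higher at an unadjusted p under 0.05 (73.4 to 76.6 and 79.2 to 80.9 CPM). The sums of these lists, unlike that of the 8 genes, were higher in l-FA. The B cell list had 0 of 4 called by edgeR or DESeq2 (edgeR called 1 without Ctrl library 3), with 1 higher and 0 lower at an unadjusted p under 0.05 (56.5 to 57.4 and 64.6 to 67.1 CPM). Cd79b made up 91.4% to 94.9% of this sum. Without Cd79b the groups overlapped, at 84.7% to 127% of the Ctrl mean in Ctrl and 86.2% to 114% in l-FA. Pax5 had 0, 1 and 0 counts in Ctrl and 0 in each l-FA library. Ms4a1, named after its values were seen, had 8, 13 and 7 counts in Ctrl and 0 in each l-FA library. The T and NK cell list had 1 called in each direction of 4 tested, and its sum of 608 to 629 CPM in Ctrl and 389 to 398 CPM in l-FA came mostly from Nkg7, which the azurophil list also holds. Without Nkg7 the sum in l-FA was 133% to 135% of the Ctrl mean. Cd4 was called higher and Klrb1c lower. Cd8a and Trac were at 0 in all l-FA libraries, with 5 to 13 counts in Ctrl, while Cd3e had 0, 0 and 4 counts in Ctrl and 6, 3 and 10 in l-FA, and Gzma 0, 3 and 2 against 12, 16 and 6. Of the 15 HSC markers, Slamf1 was called higher and 0 were called lower by edgeR or DESeq2. Without Ctrl library 1 or l-FA library 3, edgeR called 2 in all. On the adjusted p alone 9 were higher and 1 lower, against 25.5% and 25% of all genes tested. The lower one was Hlf, with a log2 fold change of -0.31 (SE 0.047, adjusted p = 0.00195, edgeR), and at an unadjusted p under 0.05 also 1 was lower. The sum of the HSC markers was 2065 to 2202 CPM in Ctrl and 2419 to 2451 CPM in l-FA. These shifts moved with the groups as the 8 genes did, and their part in the values of the 8 genes was not tested.

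Position was not used to choose the genes, so the genes around them could be tested. S100a8 and S100a9 lie 22.6 kb apart with no listed gene between them. Camp and Ngp are 570.1 kb apart with 17 listed genes between them, and Ngp and Ltf 596 kb apart with 18. Within 250 kb of the 8 genes the table lists 91 other genes, of which 61 were tested. Of these, 0 were called lower by edgeR or DESeq2 and 5 were called higher, against 5.1% and 6.68% of all genes tested. At an unadjusted p under 0.05 and any fold, 19 were lower and 17 higher. On the adjusted p alone 19 were lower and 14 higher, against 25% and 25.5% of all genes tested. Their median log2 fold change was 0.01, with a range from -0.998 to 1.55.

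**Figure D4:**
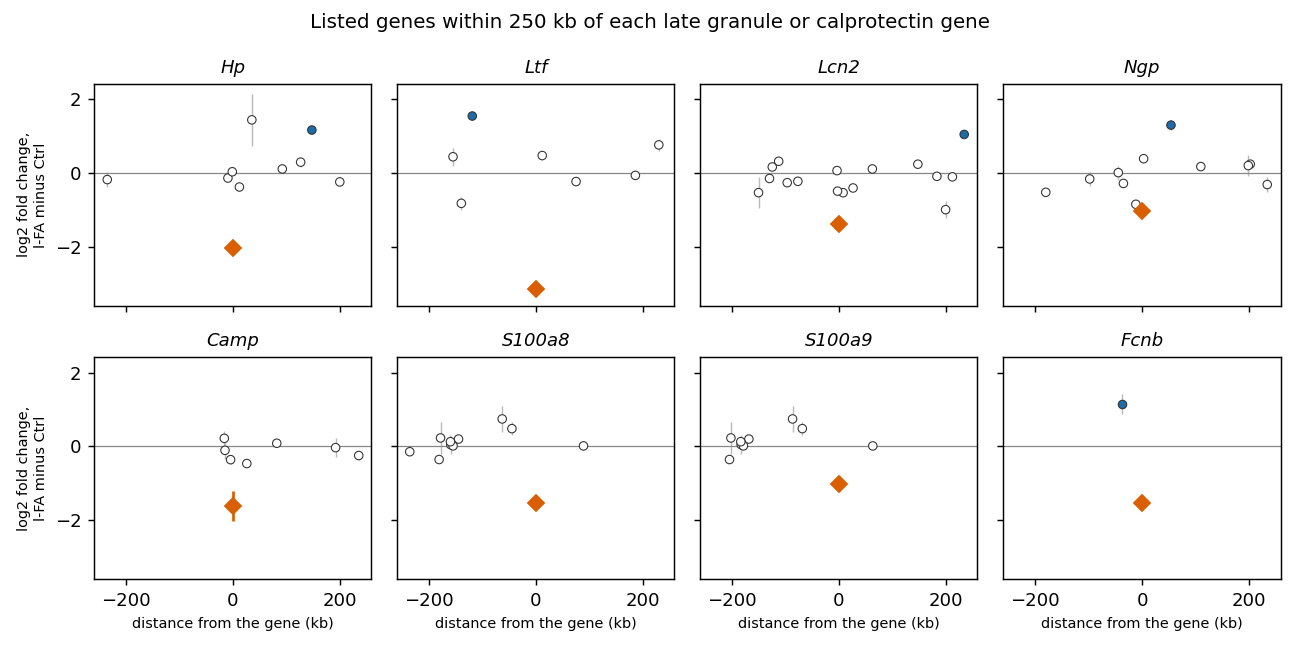
Log2 fold change (l-FA minus Ctrl, edgeR) of tested genes within 250 kb of each of the 8 genes against their distance in kb, with SE (derived from the F statistic) as bars. Orange diamonds at 0 kb are the 8 genes themselves, which are left out of each other's panels, and blue points are the 5 neighbors past both thresholds, all of them higher in l-FA.

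The 5 neighbors called higher were Als2cl near Ltf, Kif9 near Ngp, Ak1 near Lcn2, Atxn1l near Hp and Col5a1 near Fcnb. Als2cl rose most, with a log2 fold change of 1.55 (SE 0.070, adjusted p = 2.03e-05, edgeR), from 164, 159 and 165 counts in Ctrl to 520, 520 and 466 in l-FA. It overlaps Tmie, whose log2 fold change was -0.83 (adjusted p = 0.00972, edgeR). For Fcnb, Col5a1 was the only tested gene within this distance. For the other 7 genes the nearest tested gene outside the 8 was not called. Txnl4b, 1.08 kb from Hp, did not differ beyond its error (log2 fold change 0.03, adjusted p = 0.816, edgeR), and Klhl18, 2.91 kb from Ngp, rose by 0.39 (adjusted p = 0.00225, edgeR). Nme6, 4.26 kb from Camp, fell by 0.36 (adjusted p = 0.0364, edgeR), and Bbln, 2.70 kb from Lcn2, had a log2 fold change of -0.49 (adjusted p = 0.00914, edgeR). Ccrl2, 11.7 kb from Ltf, rose by 0.47 (adjusted p = 0.0162, edgeR). Nearest to S100a8 was S100a6, at 0.48 (adjusted p = 0.0632, edgeR), and nearest to S100a9 was Gm35013, at 0.01 (adjusted p = 0.949, edgeR).

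The genes whose pattern over the 6 libraries was most like that of the 8 genes were sought among the 12741 genes whose mean count reached 50. Likeness was the root mean square difference, in log2 CPM centred on each gene's mean, from the median pattern of the 8 genes. The nearest were Igkv1-117, an immunoglobulin kappa variable segment (0.0678), Fkbp11, a prolyl isomerase of the secretory pathway (0.0829), Gm5134 (0.0848), Prex2, a Rac exchange factor (0.0898), the splicing factor gene Srsf9 (0.0922) and Mcmbp, whose protein binds the replicative helicase (0.0968). The 8 genes themselves lay between 0.096 and 0.892 from their median. None of the nearest genes is on a neutrophil list. Gm5134, Prex2 and Mcmbp overlap other listed genes, and reads of Igkv1-117 may be shared with its close relatives. By Pearson's correlation instead of distance, 6 other genes came first, with 0 shared, and 1739 genes had a correlation above 0.95 with the pattern, so this measure ranks many genes close together.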

How the data were processed

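HSC RNA was amplified as full-length cDNA (SMART-Seq HT) and sequenced on an Illumina NovaSeq. The authors deposited counts per gene, without normalization, and FPKM values made from the same counts. The submitters' processing notes list GRCm39, HISAT2, SAMtools 1.3.1, StringTie and edgeR with no roles, and the annotation and the use of strand are not given in the sources used here. Libraries were grouped by their labels. Counts were fitted with edgeR 4.0.16 in R 4.3.3 (TMM, filterByExpr, glmQLFit and glmQLFTest, Benjamini-Hochberg over 16520 genes). DESeq2 1.42.0, the tool of the study's methods, was an alternative. CPM and FPKM were used for levels, with a prior count of 2 for log2 CPM. Code was tested on simulated data. Intervals cover counting error only, since amplified cDNA without molecular identifiers is not counted as independent molecules. The depth was 19287735 to 20380610 counts per library. With 3 libraries a group, an exact two-sided permutation test cannot give a p below 0.1, so none is given for a single gene.

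The 8 genes and all lists were chosen with earlier results of these data known. Beside the 8 genes, the text names at most the 6 called genes of lowest p per list, the regulators, partners and sort antigens, called neighbours within 250 kb and the 6 genes nearest in pattern, and says where a gene was named otherwise. The alternatives tried were DESeq2, other scalings, other filters on low counts, no fold limit, the replicate block and each library left out. Over all genes tested, same-numbered libraries did not deviate together (r = 0.0187, -0.0132 and -0.0500), so the numbers were not taken as pairs. Single genes could, as Tlr4 did with library 1 of each group. Promoters came from RefSeq (GRCm38.p6) and were matched by symbol, never by coordinates of the other build. Protein sequences were not used here, and 1 marker gene is not reported here.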

Additional observations from a re-analysis of the deposited data

How the results depend on the processing

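All 8 late granule and calprotectin genes kept a negative log2 fold change under every alternative that gave a value, from -3.34 to -2.95 for Ltf and from -1.19 to -0.84 for S100a9, and the median stayed between -1.62 and -1.42. The sign could hardly change when a library was left out, because every l-FA library lay below every Ctrl library in each gene. The genes were also chosen on this contrast, so the kept sign is a description only. Camp has no value when 10 counts are required in every library. A fitted fold above 2 was found for 7 of the 8 genes with upper-quartile scaling, with the replicate block, without Ctrl library 1 and without Ctrl library 3, and for 6 without l-FA library 3. This limit was added after seeing the data. The number of genes called was 3335 with no low-count filter, 930 with at least 10 counts in every library and 8336 with no fold limit, and 2035 to 2086 with 1 library left out. The fit with the replicate block called 1852 genes, and over all genes tested same-numbered libraries did not deviate together. With no fold limit, 25% of all genes tested passed in the lower direction and 25.5% in the higher. Beside this, 21 of 28 passed in the other late neutrophil list, 7 of 10 regulators, 5 of 8 partners and 1 of 6 in the S100 family. So did 10 of 15 HSC markers, 5 of 6 antigens of the sort and 9 of 12 in the monocyte list. The eosinophil, basophil and mast cell list had 9 of 11, B cells 1 of 4 and T and NK cells 4 of 4. Erythroid genes had 3 of 8, megakaryocyte genes 5 of 8 and the neighbors 33 of 61. These counts are not read as results about the lists. With no low-count filter, which tests more genes, 3335 of 27198 genes were called. The counts were then 1 for the S100 family, 1 for B cells, 6 for T and NK cells, 2 for erythroid genes and 9 for the neighbors. With 1 library left out, the S100 family had 0 to 1 called (1 without l-FA library 2), the HSC markers 1 to 2 (2 without Ctrl library 1 or l-FA library 3), the antigens of the sort 0 to 2 (1 without Ctrl library 1, 0 without l-FA library 3), B cells 0 to 1 (1 without Ctrl library 3) and erythroid genes 0 to 1 (0 without Ctrl library 1 or l-FA library 3). Beyond the construction of each setting, the cause was not tested. Depth limits Camp most, and S100a9 and Ngp lie at the 2-fold limit.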
